A study of Mus musculus with 8 samples.

Results

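CD169+ macrophage depletion without irradiation was studied on 4 of the 8 arrays of the series, 2 of CD169-DTR and 2 of wild-type (WT) mice. The 4 arrays were picked by their labelled genotype and treatment. The comparison and the gene lists were chosen with earlier results of these data known. Each array holds RNA of mouse bone marrow cells that passed a gate for long-term haematopoietic stem cells (LT-HSC). The gate kept cells negative for lineage markers, Flk2 and CD48 and positive for cKit, Sca and CD150. CD169-DTR mice (CD169DTR/+) carry 1 copy of an allele that makes cells with an active CD169 gene (Siglec1) express the diphtheria toxin receptor. Diphtheria toxin was injected into both genotypes, so both groups share any effect of the toxin itself. The series holds no CD169-DTR mice without toxin, so depletion and the allele itself cannot be told apart in the genotype comparison. Sham irradiation followed 72 h later, and the cells were isolated at day 5 after it. The other 4 arrays come from mice of both genotypes that received 2 Gy of total body irradiation in place of the sham. The replicates come from distinct experiments, and the sources used here do not give the number of mice behind an array.

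CD169 marks macrophages that line the vascular spaces of bone marrow and spleen and the sinuses of lymph nodes. In bone marrow they are known to help retain stem cells in their niche by sustaining Cxcl12 from stromal cells, and to form the centre of the islands in which red cell precursors mature. The toxin receptor follows Siglec1 activity, so toxin can reach CD169+ cells in any organ of these mice. LT-HSC are not known to carry CD169, and the arrays measured their RNA, not that of the macrophages.

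The sorted cells carried the defining genes of LT-HSC. Of 12 LT-HSC markers 11 were measured, and all 11 stood above the array median on each of the 4 arrays. Hlf, a transcription factor of stem cells, had log2 values of 13.33 and 13.18 in WT and 12.94 and 12.95 in CD169-DTR. Kit, the receptor used in the gate, had 14.93 and 14.89 in WT and 14.77 and 14.66 in CD169-DTR. Macrophage genes were near the background: 10 of 16 markers lay below the median on all 4 arrays, and only Cd68, Marco and Vcam1 lay above it on all 4. Siglec1 had 3.93 and 3.87 in WT and 4.01 and 3.87 in CD169-DTR, so these cells give no check of the depletion. Array medians of the series lay between 4.76 and 4.93. Over all probe sets the WT arrays correlated with each other at a Pearson r of 0.9943 and the CD169-DTR arrays at 0.9911, and arrays of different genotypes at 0.9913 to 0.9937.

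Of the 30294 probe sets tested with limma, 0 passed an adjusted p under 0.05 (0.0%), and 1327 had an unadjusted p under 0.05, fewer than the average of 1514.7 that this threshold gives where no gene differs. Of the 1327 probe sets 755 were higher and 572 lower in CD169-DTR. The smallest adjusted p was 0.157, of Mir148a, and every other probe set stood at 0.936 or above. An intensity trend in limma passed 1 probe set, again Mir148a, and cyclic loess, median centring, array weights and a filter on dim probe sets passed 0. An exact permutation test of 2 arrays against 2 cannot go below 0.333, so it can decide for no gene. The values below are therefore descriptions of these 4 arrays, with intervals of the limma fit.

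Mir148a, the gene of a microRNA, is shown first because it had the smallest p of all, and it was chosen after its values were seen. Its arms in RefSeq (GRCm38.p6, minus strand of chromosome 6) are given with the seed, bases 2 to 8 that pair with targets, in capitals.
mmu-miR-148a-3p (chr6:51269829-51269850): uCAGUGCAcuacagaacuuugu
mmu-miR-148a-5p (chr6:51269867-51269888): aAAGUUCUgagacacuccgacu
The probe set does not say which arm it measures. Its log2 values were 6.40 and 5.72 in CD169-DTR and 2.82 and 3.08 in WT, and the groups did not overlap. All 4 irradiated arrays resembled WT, with 3.19 and 3.05 in WT and 2.92 and 3.08 in CD169-DTR. These low values and those of non-irradiated WT are lower than the 25th percentile of each array, which ranged from 3.85 to 4.04, and a fold is therefore not given. The adjusted p in limma was 0.157 for the non-irradiated comparison and 0.679 for its difference from the 2 Gy comparison. The gene passed without CD169-DTR replicate 2 (adjusted p = 0.0284 in limma), where replicate 1 stands alone.

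Small RNA genes were also counted as a kind. The criteria were separate groups, a fold of at least 1.5 and an unadjusted p under 0.05 in limma. By these, 59 of 2767 probe sets of small RNA genes (2.13%) were higher and 19 (0.687%) lower. Of the 19234 probe sets of protein-coding genes 184 (0.957%) were higher and 206 (1.07%) lower. A gene with several probe sets is counted with each of them. The median replicate SD was 0.212 log2 for small RNA genes and 0.148 for protein-coding genes, and the part of this spread in the counts was not tested. Snord69, a guide of ribosomal RNA modification, had 7.51 and 7.14 in CD169-DTR against 5.52 and 5.66 in WT. Scarna10, a small RNA of Cajal bodies, had 5.20 and 5.19 against 4.01 and 4.36. Both were chosen after their values were seen.

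Among protein-coding genes, those with the smallest unadjusted p on the higher side included a cell cycle inhibitor, a galectin, an interleukin subunit and a matrix protease. Cdkn1a (p21), an inhibitor of cyclin-dependent kinases, had 9.79 and 9.34 in CD169-DTR and 7.86 and 8.39 in WT. This is 2.71-fold with a 95% interval of 1.83 to 4.03 (adjusted p = 0.936 in limma). Lgals1, a secreted galectin that binds surface glycans, had 12.43 and 12.58 against 11.03 and 11.42, which is 2.43-fold (1.71 to 3.46). Separate groups and a fold of at least 1.5 were conditions of this choice, so the separation of the groups is no finding here.

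Ebi3, a subunit of the cytokines IL-27 and IL-35, had 5.53 and 5.43 against 4.70 and 4.73, or 1.70-fold (1.41 to 2.05). Mmp2, a protease of collagen and gelatin, had 6.80 and 6.73 against 6.12 and 5.89, or 1.69-fold (1.34 to 2.14). Slamf8, a SLAM family receptor of myeloid cells, had 6.20 and 5.50 against 4.74 and 4.75. These genes lie at moderate to low levels, and the same conditions held for their choice. Efna1, a membrane-bound ligand of Eph receptors, was 2.31-fold higher (1.58 to 3.38). Noc3l, a factor of replication licensing and ribosome assembly, was 2.35-fold higher (1.60 to 3.47). Pemt, which makes phosphatidylcholine from phosphatidylethanolamine, was higher in each of its 4 probe sets, by 0.90 to 1.09 log2. The adjusted p of all these genes was 0.936 in limma.

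Genes with the smallest unadjusted p on the lower side included a Wnt receptor, cytoskeletal genes and a focal adhesion kinase. Fzd4, a Frizzled receptor of Wnt and norrin, had 4.80 and 4.76 in CD169-DTR and 5.73 and 6.01 in WT, which is 2.13-fold lower (95% interval 1.70 to 2.66, adjusted p = 0.936 in limma). Ptk2b (Pyk2), a kinase that acts downstream of integrins and chemokine receptors, had 10.42 and 10.83 against 11.53 and 11.54. Ube2s, the chain-elongating E2 enzyme of the anaphase-promoting complex, had a log2 difference of -0.97 ± 0.18 (SE). Separate groups were again a condition of the choice, here and for the genes of the next paragraph.

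The other genes of the lower group had varied roles. Map1b, a microtubule-associated protein, had -0.99 ± 0.13 (SE) and reached 3.64 and 3.79 in CD169-DTR. Nbea, a vesicle traffic protein, had -1.14 ± 0.17. Tbcc, a tubulin folding cofactor, had -0.88 ± 0.13. Tspan3, a tetraspanin, had -0.90 ± 0.15, and Rbm38, an RNA-binding protein and p53 target, had -0.66 ± 0.12. Taf1a, a subunit of the RNA polymerase I factor SL1, had -1.29 ± 0.25. H2ac24, a replication-dependent histone gene, had -1.45 ± 0.25, and near-identical histone genes can share its probes. Exoc3, a subunit of the exocyst, had -0.63 ± 0.12, and Zswim7, a factor of homologous recombination, had -0.67 ± 0.11. Tarsl2, a threonyl-tRNA synthetase, had -0.67 ± 0.13, and Crybg3 had -1.53 ± 0.26. All of these had an adjusted p of 0.936 in limma.

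**Figure D1:**
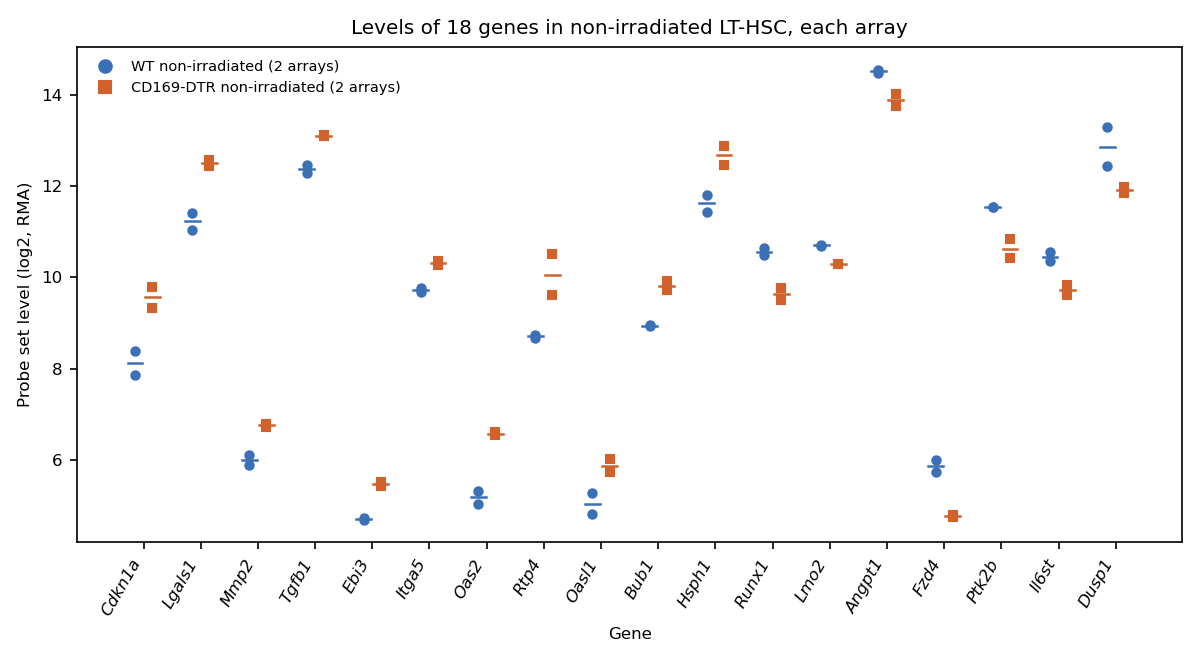
Log2 level of 18 genes (y axis) on each non-irradiated array, WT as blue circles and CD169-DTR as orange squares, with a line at each group mean. In all 18 genes both CD169-DTR arrays lie on 1 side of both WT arrays, as with Cdkn1a at 9.79 and 9.34 against 7.86 and 8.39. This follows in part from the choice. Separate groups were a condition for some, such as Cdkn1a, and the others had small unadjusted p within their lists.

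The 2 Gy arrays show where the non-irradiated CD169-DTR level lay between the other groups. Any comparison of irradiated with non-irradiated arrays shares the non-irradiated arrays with the genotype comparison, so only levels are given. Cdkn1a stood at 13.06 and 13.41 in WT and at 13.24 and 13.23 in CD169-DTR after 2 Gy, above both non-irradiated groups. Its genotype difference was 1.44 ± 0.24 log2 (SE) without irradiation and 0.00 after 2 Gy. The test of this difference gave an adjusted p of 0.839 in limma.

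Lgals1 stood at 12.71 and 12.70 in WT and at 12.85 and 13.38 in CD169-DTR after 2 Gy. Its non-irradiated CD169-DTR values of 12.43 and 12.58 thus lay nearer to the irradiated arrays than to non-irradiated WT. Mmp2 stood at 8.23 and 7.99 in WT and at 7.69 and 7.59 in CD169-DTR after 2 Gy, so that the order of genotypes was opposite to the order without irradiation. Cd86, a costimulatory ligand of T cells, had 8.29 and 8.30 in CD169-DTR and 7.62 and 7.19 in WT without irradiation. After 2 Gy it had 7.45 and 7.30 in CD169-DTR and 8.33 and 7.93 in WT, again the opposite order. The adjusted p for the difference between both settings was 0.753 in limma for Mmp2 and for Cd86.

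Cxcr4, the receptor by which stem cells are held by Cxcl12, did not separate the genotypes without irradiation, at 14.17 and 14.00 in CD169-DTR and 14.16 and 14.10 in WT. The log2 difference was -0.05 ± 0.12 (SE), and the 95% interval of the ratio runs from 0.795 to 1.18. After 2 Gy the genotypes stood apart, at 13.79 and 13.88 in CD169-DTR and 12.43 and 12.51 in WT. The difference between both settings had an adjusted p of 0.679 in limma.

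**Figure D2:**
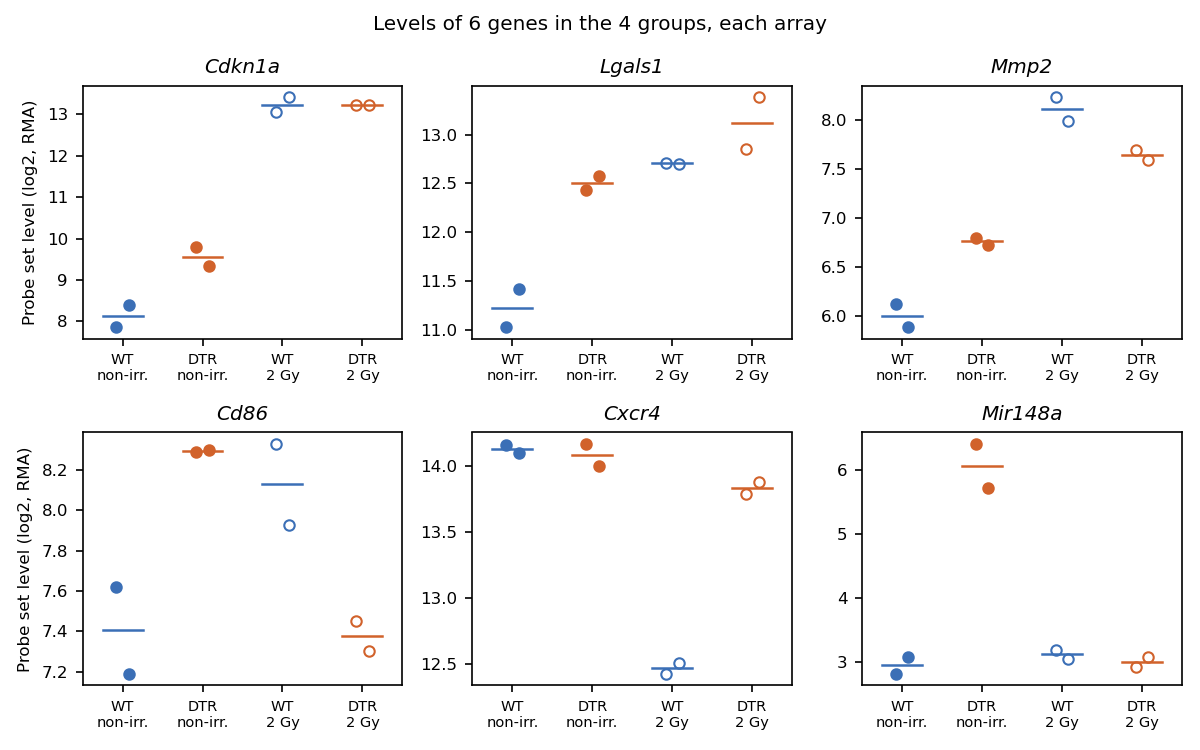
Log2 level (y axis, a separate scale for each gene) of Cdkn1a, Lgals1, Mmp2, Cd86, Cxcr4 and Mir148a on each array of the 4 groups, with filled points for non-irradiated and open points for 2 Gy arrays and a line at each mean. Cdkn1a, Lgals1 and Mmp2 stand higher in CD169-DTR than in WT without irradiation. Their levels are higher in both genotypes after 2 Gy, where the genotype differences are 0.00, 0.41 and -0.47 log2. Mir148a is high on both non-irradiated CD169-DTR arrays alone.

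Genes that uphold LT-HSC identity stood lower on balance in CD169-DTR. Of 35 measured members of this list 27 were lower and 8 higher, with a median log2 difference of -0.12 against 0.03 over all 29915 genes. The groups did not overlap in 13 members on the lower side (37.1%, where all genes gave 11.9%) and in 4 on the higher side, where all genes gave 19.0%. An unadjusted p under 0.05 in limma was reached by 6 members on the lower side, where all genes gave 1.9%, and by 1 on the higher side, where all genes gave 2.48%. The adjusted test passed 0 members. The list of neutrophils and their progenitors stood on the other side on the same arrays, with levels of -0.46 and -0.12 in WT and -0.08 and 0.19 in CD169-DTR. Cd48, whose protein the gate excludes, was at 12.54 in CD169-DTR replicate 2 and at 10.98 to 11.24 on the other 3 arrays. The part of either in the lower stem cell genes was not tested.

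Runx1, a transcription factor needed for the emergence of stem cells, had 9.76 and 9.51 in CD169-DTR and 10.65 and 10.48 in WT, which is 1.91-fold lower (95% interval 1.28 to 2.83, adjusted p = 0.979 in limma). Lmo2, a bridging cofactor of Tal1 and Gata2, had 10.29 on both CD169-DTR arrays and 10.69 and 10.71 in WT. Angpt1, a ligand of Tek (Tie2) that stem cells make themselves, had 13.76 and 14.02 against 14.47 and 14.55. In these genes the replicates of a group lay closer to each other than to the other group.

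Esam, an adhesion molecule of stem cells and endothelium, had a log2 difference of -0.71 ± 0.24 (SE). Mecom (Evi1), a stem cell transcription factor, had -0.45 ± 0.18, and Hlf had -0.31 ± 0.12. Mllt3, which sustains self-renewal, had -0.36 ± 0.26, and Robo4, an adhesion receptor, had -0.28 ± 0.16. Mecom, Hlf, Mllt3 and Robo4 were added after their values were seen. All stem cell genes named in this and the previous paragraph were lower, and the 8 higher members of the list are not among them. Among the LT-HSC markers, Hoxb5 had a higher mean, with 5.83 and 5.44 in CD169-DTR and 5.50 and 5.41 in WT. The other markers had lower means, and the groups overlapped in Hoxb5, Tek, Slamf1, Procr, Fgd5 and Meis1. The list median was -0.23 without CD169-DTR replicate 1 and -0.06 without its replicate 2. The level of the list on an array, the median over members of the distance from the mean of the 8 arrays, was 0.10 and 0.16 in WT and 0.11 and -0.02 in CD169-DTR, so the list levels of the groups overlapped.

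The surface receptors of the niche did not share 1 direction. Of 37 niche receptor and adhesion genes 19 were higher and 18 lower, with a median of 0.01. Itga5, the fibronectin receptor subunit, had 10.35 and 10.28 in CD169-DTR and 9.69 and 9.77 in WT, or 1.5-fold (95% interval 1.21 to 1.87, adjusted p = 0.937 in limma). Cd44, the hyaluronan receptor, had a log2 difference of 0.31 ± 0.15 (SE). Il6st (gp130), the shared receptor subunit of the IL-6 family, had 9.84 and 9.61 against 10.36 and 10.55.

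Cytokine and growth factor receptors had 18 of 27 members lower and 9 higher, with a median of -0.13. The groups did not overlap in 7 members on the lower side (25.9%, where all genes gave 11.9%) and in 1 on the higher side (3.7%, where all genes gave 19.0%). Kit had -0.20 ± 0.11 log2 (SE), Bmpr1a -0.40 ± 0.20 and Tgfbr1 -0.22 ± 0.13, all receptors that signal from niche ligands. Bmpr1a lay near the low end of the arrays, with 4.06 and 3.99 in CD169-DTR and 4.15 and 4.69 in WT. Its difference rested mainly on WT replicate 2. TGF-beta and BMP response genes had 17 of 28 members lower and a median of -0.06. Of these members 9 were lower without overlap (32.1%, where all genes gave 11.9%) and 3 higher (10.7%, where all genes gave 19.0%). The ligand Tgfb1, known to hold stem cells in quiescence, stood higher, at 13.11 and 13.09 in CD169-DTR against 12.46 and 12.29 in WT. This is 1.65-fold (95% interval 1.27 to 2.15, adjusted p = 0.937 in limma). Smad4, the shared effector of the pathway, had -0.25 ± 0.13.

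**Figure D3:**
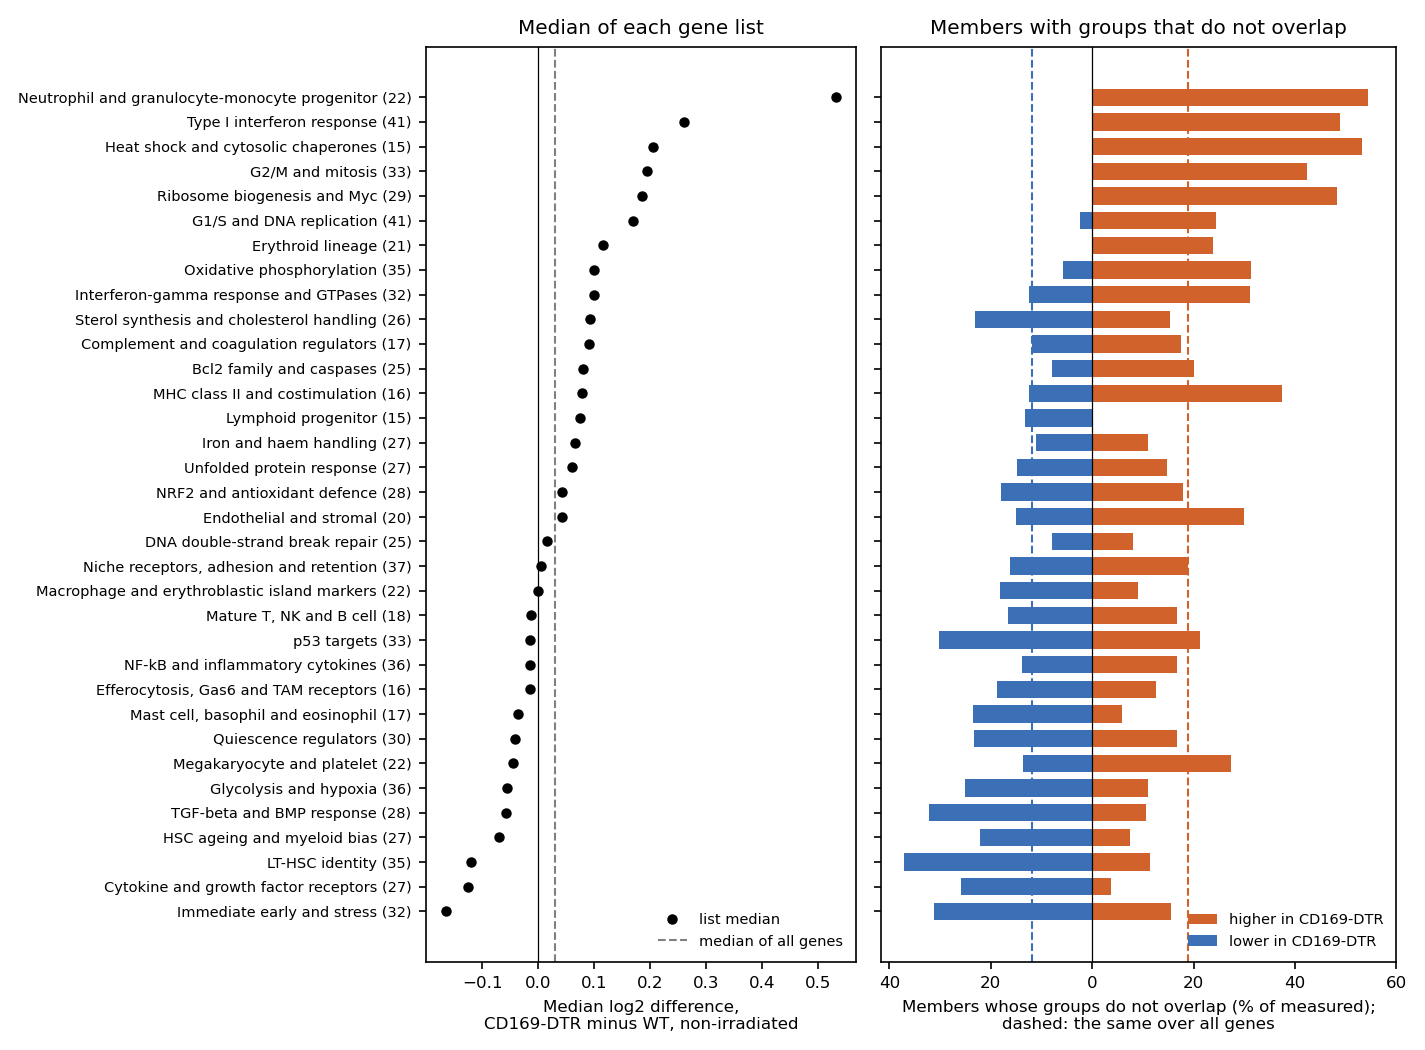
Left, median log2 difference of each of the 34 gene lists (number of measured members in brackets), with a dashed line at 0.03 for all genes. Right, share of members in percent whose groups do not overlap, higher in orange and lower in blue, with dashed lines at 19.0% and 11.9% for all genes. The neutrophil list stands at the top with 0.53, followed by the type I interferon list with 0.26, and the immediate early list stands at the bottom with -0.17.

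Type I interferon response genes stood higher in CD169-DTR. Interferon is known to drive them through the interferon-stimulated response element in their promoters. Of 41 measured members 33 were higher and 8 lower, with a median of 0.26 log2. The groups did not overlap in 20 members on the higher side (48.8%, where all genes gave 19.0%). On the lower side they did not overlap in 0, where all genes gave 11.9%. In limma 6 members had an unadjusted p under 0.05, all on the higher side, where all genes gave 2.48%, and 0 passed the adjusted test.

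Oas2, a sensor of double-stranded RNA that activates RNase L, had 6.54 and 6.62 in CD169-DTR and 5.05 and 5.33 in WT, or 2.62-fold (95% interval 1.65 to 4.17, adjusted p = 0.936 in limma). Rtp4, a chaperone of receptors and an interferon-induced gene, had 10.51 and 9.61 against 8.68 and 8.74, or 2.55-fold (1.58 to 4.12). Oasl1, a relative of Oas2, had 6.02 and 5.73 against 5.27 and 4.81. In each gene both CD169-DTR arrays lay above both WT arrays. Ifit1, which binds foreign RNA caps, had 8.76 and 8.32 against 7.80 and 7.22. Isg15, a ubiquitin-like modifier, had 7.82 and 7.56 against 6.99 and 7.27. Ifit3b had 5.81 and 5.62 against 5.17 and 5.26. Ifit1 and Isg15 were named after their values were seen.

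The promoters of the list were searched for the element. The letters GAAANNGAAA were searched on both strands (TTTCNNTTTC on the other) in the 250 bases before each start site of RefSeq (GRCm38.p6), and overlapping matches were kept. They were found for 11 of the 31 list genes with a promoter entry (35.5%), and for 936 of all 27025 promoters (3.46%). Oas2 and Rtp4 were not among the genes searched, and the window of Oasl1 held no match. For 3 genes named above and for Oas1a, a single window is printed with its match in capitals, along the gene's own strand. The first base of that match is counted from the start site. Each of these promoters held further matches, which are not marked.
Isg15 (chromosome 4, minus strand, -72): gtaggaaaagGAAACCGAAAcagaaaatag
Ifit1 (chromosome 19, plus strand, -85): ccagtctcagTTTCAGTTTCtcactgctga
Ifit3b (chromosome 19, plus strand, -154): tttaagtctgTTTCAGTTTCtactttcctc
Oas1a (chromosome 5, minus strand, -20): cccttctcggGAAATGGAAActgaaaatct
All 11 genes with a match were higher in CD169-DTR, 7 of them with groups that do not overlap and with a median of 0.29 log2. Of the 20 without a match 15 were higher, 8 with groups that do not overlap, and their median was 0.23. Over all genes 56.9% were higher, and 19.0% were higher with groups that do not overlap. The genes with a match are not independent, as Ifit3 and Ifit3b have the same windows and Oas1a and Oas1g share a stretch. Whether a match bears on the genotype difference was not tested. A match is a description of these letters and not a measured binding site.

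The level of the interferon list was -0.01 and -0.04 on the WT arrays and 0.25 and 0.14 on the CD169-DTR arrays, so the groups did not overlap. After 2 Gy the levels were -0.01 and -0.20 in WT and -0.03 and -0.28 in CD169-DTR, and the median genotype difference was 0.01. There the groups did not overlap in 8 members on the higher side, where all genes gave 16.0%, and in 9 on the lower side, where all genes gave 18.9%. The difference between both settings was tested by gene only, and Oas2 had an adjusted p of 0.96, Rtp4 of 0.91 and Oasl1 of 0.913 in limma. The list median stayed between 0.19 and 0.29 over the alternatives, with the lowest value without CD169-DTR replicate 1.

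Genes of the interferon-gamma response had 19 of 32 members higher and 13 lower, with a median of 0.10. Gbp8, a guanylate-binding protein, had a log2 difference of 1.0 ± 0.35 (SE), and Ifngr2, a subunit of the receptor, 0.69 ± 0.19. Ifi204, a DNA sensor of the PYHIN family, had 0.39 ± 0.14. Without CD169-DTR replicate 2 the list median was -0.02. NF-kB and inflammatory cytokine genes were balanced, with 17 of 36 higher, 19 lower and a median of -0.02. Tnf had 0.82 ± 0.23, while Tnfaip3 (A20), an inhibitor of the pathway, had -0.91 ± 0.22.

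Most genes of mitosis and replication stood higher in CD169-DTR, as Cdkn1a did. Of 33 G2/M and mitosis genes 28 were higher and 5 lower, with a median of 0.20 log2, and the groups did not overlap in 14 on the higher side (42.4%, where all genes gave 19.0%) and in 0 on the lower, where all genes gave 11.9%. Of 41 G1/S and replication genes 35 were higher and 6 lower, with a median of 0.17. Its 10 members without overlap on the higher side (24.4%) were near the 19.0% of all genes. Bub1, a kinase of the spindle checkpoint, had 9.92 and 9.72 in CD169-DTR and 8.95 and 8.93 in WT, or 1.84-fold (95% interval 1.06 to 3.18, adjusted p = 0.999 in limma). Ccne2 (cyclin E2) had a log2 difference of 0.82 ± 0.24 (SE), and Rrm1, a subunit of ribonucleotide reductase, 0.49 ± 0.17.

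The proliferation marker Mki67 stood on the other side, with -0.48 ± 0.28, and its groups overlapped. Mcm4, a subunit of the replicative helicase, had -0.53 ± 0.24. The G2/M list was also higher in CD169-DTR after 2 Gy, with a median of 0.38 over the same members, and the G1/S list with 0.32. Without CD169-DTR replicate 2 the median of the G1/S list was 0.02, and without CD169-DTR replicate 1 or WT replicate 1 the G2/M median was 0.26 or 0.11.

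Ribosome biogenesis and cytosolic chaperone genes were also mostly higher, while sterol synthesis and unfolded protein response genes, with 15 of 26 and 15 of 27 higher, were divided. Ribosome biogenesis and Myc genes had 22 of 29 members higher, 6 lower and 1 equal, with a median of 0.19 and 14 (48.3%, where all genes gave 19.0%) without overlap on the higher side. Srm (spermidine synthase) had a log2 difference of 0.55 ± 0.21 (SE), and Eif4e, the cap-binding factor of translation, 0.50 ± 0.22. The list median was 0.06 without CD169-DTR replicate 2 and 0.38 without its replicate 1, so its size rested on 1 array.

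Heat shock and cytosolic chaperone genes had 12 of 15 higher, with a median of 0.21 and 8 (53.3%, where all genes gave 19.0%) without overlap on the higher side. Hsph1 (Hsp105), a nucleotide exchange factor of Hsp70, had 12.47 and 12.88 in CD169-DTR and 11.81 and 11.44 in WT, or 2.07-fold (95% interval 1.37 to 3.14, adjusted p = 0.937 in limma). Hspa4l, a related factor, had 0.44 ± 0.17. Oxidative phosphorylation genes had 28 of 35 higher and a median of 0.10, among them Cox5b with 0.34 ± 0.14. This median was 0.17 without WT replicate 2, 0.03 without WT replicate 1 and -0.005 without CD169-DTR replicate 2, so its direction rested on that array. Glycolysis and hypoxia genes had 24 of 36 lower and a median of -0.06, among them Pdk2, which restrains pyruvate entry into mitochondria, with -0.46 ± 0.20.

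Immediate early and stress genes stood lower. Of 32 members 23 were lower and 9 higher, with a median of -0.17 log2, and the groups did not overlap in 10 on the lower side (31.2%, where all genes gave 11.9%) and in 5 on the higher side (15.6%, where all genes gave 19.0%). Dusp1, a phosphatase that switches off MAP kinases, had 11.84 and 11.97 in CD169-DTR and 13.29 and 12.43 in WT, or 1.94-fold lower (95% interval 1.18 to 3.19, adjusted p = 0.999 in limma). Ier2 had -0.49 ± 0.16 log2 (SE) and Dusp4 -0.79 ± 0.26. Jun and Fos, subunits of AP-1 named after their values were seen, had -0.51 ± 0.36 and -0.32 ± 0.36, and their groups overlapped. The list levels were 0.15 and 0.10 in WT and 0.01 and -0.03 in CD169-DTR.

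The p53 target genes did not follow Cdkn1a. Of 33 members 15 were higher, 17 lower and 1 equal, with a median of -0.02. The groups did not overlap in 10 on the lower side (30.3%, where all genes gave 11.9%). On the higher side they did not overlap in 7 (21.2%, where all genes gave 19.0%). Fas, a death receptor, had 4.81 and 4.82 in CD169-DTR and 5.94 and 6.30 in WT, or 2.47-fold lower (95% interval 1.19 to 5.14, adjusted p = 0.999 in limma). Ephx1, an epoxide hydrolase, was 2.20-fold lower (1.37 to 3.53, adjusted p = 0.956 in limma). Aen, a nuclease induced by p53, was 1.32-fold higher (1.08 to 1.62). Phlda3, Ccng1 and Mdm2, further targets named after their values were seen, had -0.19 ± 0.12, 0.00 ± 0.13 and -0.07 ± 0.23 log2 (SE).

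Quiescence regulators, a list that also holds Cdkn1a, had 13 of 30 members higher and 17 lower, with a median of -0.04. Cdkn2c (p18), another inhibitor of cyclin-dependent kinases, had 5.11 and 4.92 in CD169-DTR against 5.47 and 5.70 in WT, opposite in direction to Cdkn1a. Btg1, an antiproliferative cofactor, had -0.73 ± 0.29 log2 (SE). The median of this list was 0.10 without CD169-DTR replicate 2 and -0.12 without its replicate 1.

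Genes tied to macrophage functions gave medians near that of all genes. Macrophage and erythroblastic island markers had 11 of 22 higher and 11 lower, with a median of 0.00. The groups did not overlap in 4 on the lower side (18.2%, where all genes gave 11.9%). On the higher side they did not overlap in 2 (9.09%, where all genes gave 19.0%). The list levels were -0.03 and -0.05 in WT and -0.06 and -0.21 in CD169-DTR. Iron and haem handling genes, whose task these macrophages are known to share, had 15 of 27 higher and a median of 0.07. Efferocytosis genes had 7 of 16 higher and a median of -0.02. Scarf1, a scavenger receptor of apoptotic cells, had a log2 difference of -0.74 ± 0.20 (SE). Gas6, a bridging ligand of TAM receptors, had 5.57 and 5.65 in CD169-DTR and 5.32 and 5.23 in WT. Hmox1, which breaks down haem in these macrophages, had 3.77 and 3.97 in CD169-DTR and 4.02 and 4.16 in WT, near the low end of the arrays. Tfrc, the transferrin receptor, had 5.45 and 6.89 against 5.78 and 5.96, and Hbegf, the mouse gene whose human counterpart serves as the toxin receptor, had 6.83 and 6.76 against 6.55 and 7.08. The groups overlapped in both. MHC class II and costimulation genes had 10 of 16 higher and a median of 0.08, with Cd86 as the member with the smallest p.

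Genes of neutrophils and their progenitors had the highest median of the 34 lists. Of 22 members 17 were higher, 4 lower and 1 equal, with a median of 0.53 log2. The groups did not overlap in 12 on the higher side (54.5%, where all genes gave 19.0%) and in 0 on the lower, where all genes gave 11.9%. Elane (neutrophil elastase) had 12.61 and 12.87 in CD169-DTR and 11.76 and 11.59 in WT, or 2.09-fold (95% interval 0.902 to 4.85, adjusted p = 0.999 in limma). Ngp, a granule protein named after its values were seen, had 8.83 and 9.88 against 5.17 and 7.88. S100a8, a calcium-binding protein of neutrophils, had 10.53 and 11.83 in CD169-DTR and 6.74 and 10.38 in WT. For Ngp and S100a8 the WT replicates differed by more than WT replicate 2 and CD169-DTR replicate 1 did.

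The markers of mature neutrophils were uneven. Cebpe, a factor of granulocyte maturation, had a log2 difference of 0.58 ± 0.23 (SE) and Lcn2, a granule siderophore binder, 0.99 ± 0.40. Itgam, an integrin subunit that the gate excludes with other lineage markers and that was named after its values were seen, had 0.29 ± 0.16. Other markers of the list, likewise named after their values were seen, were divided. Camp had 8.48 and 10.01 in CD169-DTR and 6.79 and 7.72 in WT. S100a9, Ltf and Fcnb had means of 9.805, 5.54 and 6.44 in CD169-DTR and 7.835, 4.945 and 5.83 in WT, with groups that overlapped. The means of the next markers were not higher. Retnlg had 4.38 and 6.19 in CD169-DTR and 5.89 and 5.48 in WT. Ly6g, a surface antigen of neutrophils, had group means of 5.23 in CD169-DTR and 5.33 in WT, the collagenase Mmp8 5.29 and 5.34, and Cxcr2, a chemokine receptor, 7.90 and 7.94. Mmp9 had 3.78 in both, and the WT replicates of Mmp8 were far apart, at 4.09 and 6.59. The log2 of the summed level of the list was 13.26 and 13.34 in WT and 13.95 and 14.42 in CD169-DTR, with 15 of 22 members above the median of all 4 arrays and 2 below it. The list levels were -0.46 and -0.12 in WT and -0.08 and 0.19 in CD169-DTR. They followed the genotypes as the interferon, mitosis, ribosome biogenesis and chaperone lists did and opposite to the median of the LT-HSC identity list, and their part in those results was not tested. In bulk RNA, fewer cells of a type and less RNA per cell cannot be told apart.

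**Figure D4:**
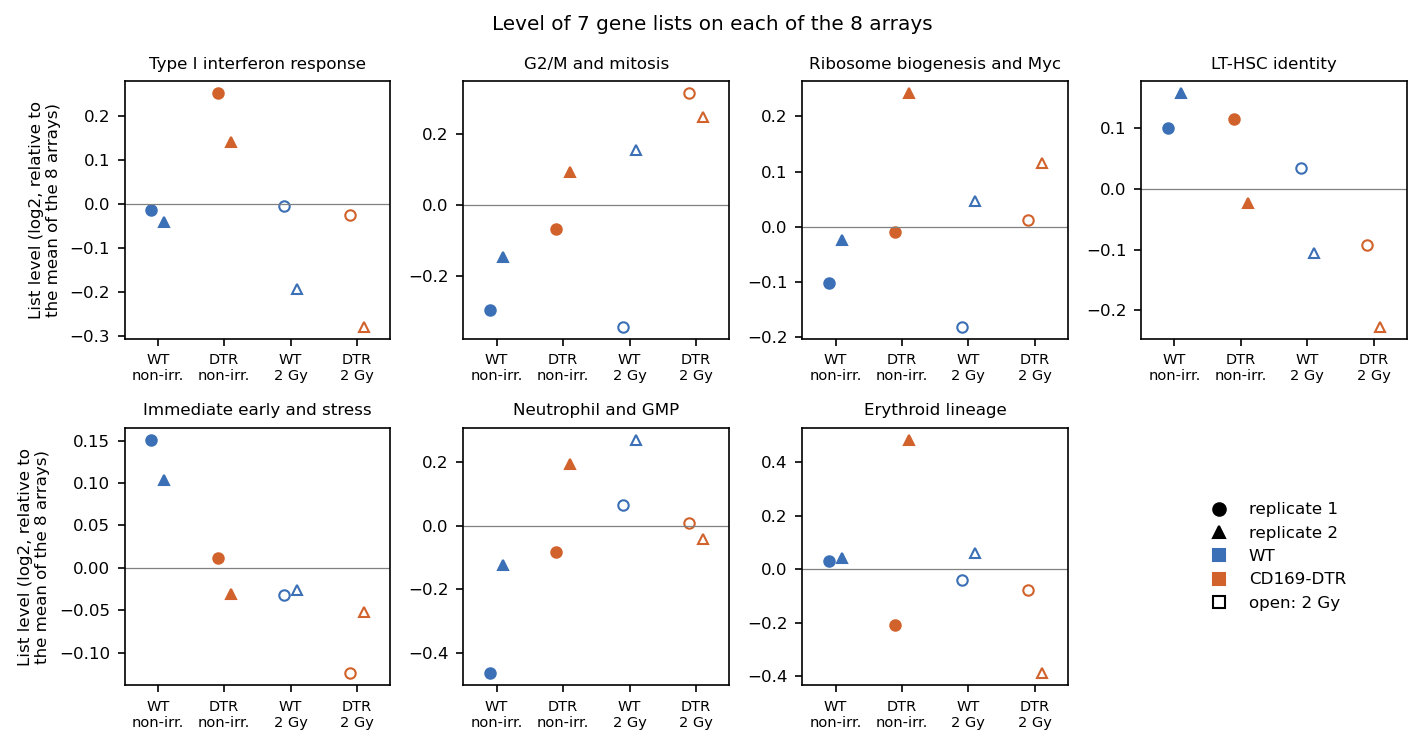
Level of 7 gene lists on each of the 8 arrays (y axis, median over members of the log2 distance from the mean of the 8 arrays, with a separate scale for each list), circles for replicate 1 and triangles for replicate 2, open for 2 Gy. The interferon list stands at 0.25 and 0.14 in non-irradiated CD169-DTR and below 0 on the other 6 arrays, and the erythroid list is high on CD169-DTR replicate 2 alone.

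The CD169-DTR replicates differed from each other in genes of other lineages. Erythroid genes stood at -0.21 in replicate 1 and 0.49 in replicate 2 and at 0.03 and 0.04 in WT, so the list median of 0.12 rested on replicate 2 and was -0.19 without it. Kel, a blood group protease of red cells, had 5.00 and 8.51 in CD169-DTR and 4.99 and 4.97 in WT. Ighm, the heavy chain of IgM, had 7.05 and 13.96 in CD169-DTR and 7.07 and 7.38 in WT. Both genes were thus high on a single array, and without CD169-DTR replicate 1, where that array stands alone, they passed (adjusted p of 0.0222 and 0.00832 in limma).

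Cd48 and Flt3, whose proteins the gate excludes, were also highest in CD169-DTR replicate 2, at 12.54 and 8.22. Cd48 had 11.24 and 10.98 in WT and 11.05 in replicate 1, and Flt3 had 7.99 and 7.12 in WT and 7.37 in replicate 1. Slamf1 (CD150), on which the gate selects, was lowest there at 10.66, against 11.75 in replicate 1 and 10.99 and 11.56 in WT. Mcpt8, a protease of basophils, had 11.05 and 10.61 in WT and 8.88 and 5.53 in CD169-DTR, the lowest value again in replicate 2. Its ratio was 12.3-fold lower with a 95% interval of 2.23 to 68.4 (adjusted p = 0.999 in limma), and the list of mast cell, basophil and eosinophil genes had a median of -0.04 over 17 members.

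The other lists lay near the median of 0.03 over all genes. Sterol synthesis genes had a median of 0.09 over 26 members, complement and coagulation regulators 0.09 over 17, Bcl2 family and caspase genes 0.08 over 25 and unfolded protein response genes 0.06 over 27. NRF2 and antioxidant genes had 0.04 over 28 members and double-strand break repair genes 0.02 over 25. Among their members Txnrd1, a thioredoxin reductase, had a log2 difference of -0.52 ± 0.15 (SE), and Bak1, an effector of cell death, 0.58 ± 0.24. Insig1, a brake on sterol synthesis, had -0.82 ± 0.31, and Abca1, an exporter of cholesterol, -0.88 ± 0.24. HSC ageing and myeloid bias genes had a median of -0.07 over 27 members.

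Among lists named for other cell types, lymphoid progenitor genes had a median of 0.08 over 15 members and mature T, NK and B cell genes -0.01 over 18. Megakaryocyte and platelet genes had -0.05 over 22, and 21 of these lay above the array median on all 4 arrays. Whether their transcripts came from LT-HSC or from other cells was not tested. Endothelial and stromal genes had 0.04 over 20 members, among them Angpt1, which stem cells also make. Pdgfrb, a receptor of stromal cells, had 7.55 and 7.75 in CD169-DTR and 6.88 and 6.35 in WT, or 2.05-fold (95% interval 1.18 to 3.57, adjusted p = 0.999 in limma). Of the 18 mature lymphocyte markers 13 lay below the array median on all 4 arrays, and of the 20 endothelial and stromal markers 11 did.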

How the data were processed

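The authors deposited log2 values, 1 for each probe set on each array. RMA, which stands for robust multi-array averaging, made them, per the submitters' processing notes. The table does not state the log base, which was taken from the convention of RMA. Of 40161 probe sets, 30294 carried 1 gene symbol and were tested, 2145 carried several and 7722 none. Symbols were updated through Entrez IDs for 827 probe sets (RefSeq, GRCm38.p6).

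From these values the mean of each of the 4 groups was fitted over all 8 arrays with limma 3.58.1 (lmFit and eBayes) in R 4.3.3, with statmod 1.5.0. All tests were two-sided, with Benjamini-Hochberg adjustment over the 30294 probe sets and a threshold of 0.05. The number of arrays limits the precision (4 residual degrees of freedom, median residual SD 0.182 log2). Fold changes are differences of log2 means. The fit was tested on simulated data.

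The 34 gene lists hold 930 genes, of which 835 were measured, each by its probe set with the highest mean, and 29915 genes served as background. The comparison, the lists and the rules were chosen with earlier results of these data known. Named genes are a choice among 15 probe sets higher and 15 lower with the smallest unadjusted p, separate groups and a fold of at least 1.5. Up to 4 members with the smallest p join them from every list, as does a short fixed set (Siglec1, Cdkn1a, Kit, Slamf1, Cd48, Flt3, Cxcr4, Mki67, Hmox1, Tfrc and Hbegf). In filling the first set 13 probe sets higher and 3 lower were passed over, namely small RNA, predicted, receptor-family and immunoglobulin genes. Other named genes are said to be so where they appear. Promoter and microRNA sequences are those of RefSeq.

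The alternatives were eBayes with an intensity trend and robust settings, all probe sets, a filter that dropped the dimmest 40%, median centring, cyclic loess, the replicate number as a block, array weights, only the compared groups, an unadjusted p under 0.05 with a fold of at least 1.5, each array left out in turn, and the mean over the probe sets of a gene. When 1 array of a group was removed, the remaining array was taken to vary as the other groups do.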

Additional observations from a re-analysis of the deposited data

Results flagged for a closer look

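For 4 lists the level on both CD169-DTR arrays lay on 1 side of both WT arrays without irradiation and on the other side after 2 Gy. Neutrophil and granulocyte-monocyte progenitor genes had a median log2 difference of 0.532 without irradiation and of -0.428 after 2 Gy. Mast cell, basophil and eosinophil genes had -0.035 and 0.185. Endothelial and stromal genes had 0.042 and -0.06. Bcl2 family and caspase genes had 0.08 and 0.025, so that their median difference after 2 Gy did not share the direction of their list levels, which were 0.065 and 0.013 in WT and -0.015 and 0.004 in CD169-DTR. The difference between both settings was not tested for these lists.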

How the results depend on the processing

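The count of 0 probe sets in limma for the non-irradiated comparison became 1 with the intensity trend and 572 with an unadjusted p under 0.05 and a fold of at least 1.5, and stayed at 0 with the dim filter, all probe sets, loess, centring, array weights and only the compared groups. Leaving out 1 array gave 0 to 6: 5 without CD169-DTR non-irradiated replicate 1 (Ighm, Kel and others), 6 without its replicate 2 (Mir148a and others) and 1 without WT non-irradiated replicate 2 (Gm22205). For 2 Gy the count of 0 became 1 with all probe sets, 1077 by the unadjusted rule and 0 to 11 without 1 array, and for the difference between both settings 1215 and 0 to 7. The replicate block gave 0 in all 3 comparisons. The sources used here do not tie the replicate numbers to the experiments. Deviations of replicate 1 from its group mean correlated between groups at -0.0877 to 0.159. These correlations cannot decide whether arrays with the same number share an experiment.

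Leaving out 1 array turned the direction of 13 of the 183 named probe sets, none of which passed with all 8 arrays: Ighm (-0.175 to 6.735), Birc3 (-0.09 to 0.84), F3 (-0.015 to 0.305), Siglec1 (-0.03 to 0.11), Slamf1 (-0.615 to 0.475), Cd48 (-0.06 to 1.43), Flt3 (-0.195 to 0.675), Cxcr4 (-0.13 to 0.04), Tfrc (-0.42 to 1.02), Hbegf (-0.285 to 0.245), Jun (-1.03 to 0.01), Fos (-0.74 to 0.1) and Mdm2 (-0.375 to 0.245).

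List medians without 1 array ranged over -0.115 to 0.05 (macrophage), -0.062 to 0.05 (efferocytosis), -0.01 to 0.085 (iron), -0.015 to 0.12 (lymphoid), -0.04 to 0.048 (mature lymphocyte), -0.165 to 0.02 (mast cell), 0.018 to 0.04 (stromal), -0.23 to -0.055 (LT-HSC identity), -0.115 to 0.1 (quiescence), -0.11 to 0.075 (ageing), -0.095 to 0.125 (repair), -0.015 to 0.095 (Bcl2), 0.185 to 0.265 (type I interferon), -0.018 to 0.13 (interferon-gamma), -0.03 to 0.182 (MHC class II), -0.04 to 0.062 (NF-kB), -0.205 to -0.09 (immediate early), -0.03 to 0.035 (niche), -0.18 to -0.06 (cytokine receptors), -0.062 to -0.015 (TGF-beta), -0.005 to 0.17 (oxidative phosphorylation), -0.098 to -0.008 (glycolysis), 0.15 to 0.31 (heat shock), 0.055 to 0.375 (ribosome biogenesis) and -0.06 to 0.162 (sterol). Loess gave 0.023 (iron), 0.012 (stromal), 0.066 (interferon-gamma), -0.039 (NF-kB) and -0.042 (niche). The dim filter gave 0.238 (lymphoid), -0.387 (mast cell), -0.045 (stromal), 0.07 (NF-kB) and -0.035 (niche). Centring gave 0.018 (stromal) and -0.04 (NF-kB). The cause of these shifts was not tested.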
